A study of Mus musculus with 2 samples.

Results

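The replication-dependent histone genes encode the bulk of the linker histone H1 and of the core histones H2A, H2B, H3 and H4, and their position relative to MEF2A peaks is described here. Members were the mouse protein-coding genes with RefSeq symbols H1-1 to H1-5 or beginning H2ac, H2bc, H3c or H4c, together with the genes that GENCODE names Hist1h, Hist2h, Hist3h or Hist4. The rule gave 67 of the 21533 protein-coding genes with a usable strand on mm10. Of these, 57 matched by RefSeq symbol, 5 were the H1 genes H1f1 to H1f5, and 5 matched by GENCODE name only (H2bu2, H2aw, H1f6, H4f16 and H4bc24). The gene that RefSeq calls H4bc24 is Hist1h2br in GENCODE and was counted as an H2B gene. The rule uses names and no measured value, although it was written with earlier results of these data known.

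MEF2A was measured by chromatin immunoprecipitation and sequencing (ChIP-seq) with a MEF2A antibody in CH12.LX, an immortalized mouse B-cell lymphoma line whose strain is labelled B10.H-2aH-4bp/Wts and whose age is labelled unknown. The 2 samples are biological replicates 1 and 2 from separate biosamples of this 1 line, with no treatment named in the labels, and they form 1 group. The deposited data used were 6 lists of peaks: a relaxed list for each replicate, a relaxed list for both pooled, the optimal and conservative sets of the irreproducible discovery rate (IDR) procedure, all on mm10, and a separate list on mm9. With 1 group and no control sample, no comparison across samples could be tested, and every count below is a description of these lists.

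Replication-dependent histone genes lie in tight clusters and are transcribed in S phase, when newly copied DNA has to be packed into nucleosomes. They are short, most have no intron, and their mRNAs end in a stem-loop instead of a poly(A) tail. Many H2A and H2B genes sit head to head and share the DNA between them, and histone promoters are known for the octamer, bound by Oct-1 and, in B cells, Oct-2, and for the CCAAT box, bound by NF-Y. MEF2A is a MADS-box factor that binds an AT-rich element.

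The optimal set held 31497 peaks, and each peak has a summit and a signal, which is the authors' own strength value and has a meaning only by rank within its list. A MEF2A summit lay within 1 kb of a transcription start site (TSS) of 40 of the 67 histone genes (59.7%), beside 30.9% of all protein-coding genes. Within 10 kb it was 57 of 67 (85.1%), beside 43.9% of all genes. The genes shared peaks: the 40 genes drew on 46 distinct peaks and the 57 genes on 69. Joining peaks that overlapped left 40 and 59 separate regions. Of the 46 peaks, 33 lay within 1 kb of 1 histone TSS, 12 within 1 kb of 2 and 1 within 1 kb of 3. With every peak assigned only to the closest gene, 34 histone genes kept a peak within 1 kb (background 28.1%) and 38 within 10 kb (background 37.1%). A window of 500 bp held a summit for 36 genes (53.7%, background 28.2%). With the outermost TSS of each gene only, the histone counts stayed at 40 (background 28.4%) and 57 (background 42.6%).

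The histone peaks had a median signal near that of other promoter peaks, but fewer of them were among the strongest. The signal of the 46 peaks ran from 9.54 to 64.8 with a median of 31.1, while all optimal peaks had a median of 34.9 and the peaks within 1 kb of any protein-coding TSS 31.6. Only 1 of the 46 (2.17%) was in the strongest 20% of the optimal set, which held 10.2% of the promoter peaks. None was among the 1000 strongest, and the best ranked 5704th. Every one of the 46 peaks was 360 bp wide, the width of 96.4% of all optimal peaks, with the summit at the middle of the interval. By rank, their median signal percentile was 41.0 in the optimal set, beside 42.2 for all promoter peaks. The side depended on the replicate: among the strongest intervals of replicate 1 alone it was 55.6 beside 47.5, and of replicate 2 alone 40.3 beside 45.4.

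The strongest of them lay between H2ac6 and H2bc4, an H2A and an H2B gene that start 240 bp apart in opposite directions on chromosome 13. Its signal was 64.8 (chr13:23683876-23684235, mm10), with the summit 97 bp upstream of the H2ac6 TSS and 143 bp upstream of that of H2bc4. It ranked 9047th of 300000 intervals in replicate 1 (signal 19.4) and 4926th in replicate 2 (signal 45.8). Next came the peak between H2ac8 and H2bc8, also a head-to-head H2A and H2B pair (48.0, chr13:23571129-23571488), 89 and 91 bp upstream of their TSSs. Here the replicates stood apart, with rank 52357 and signal 7.44 in replicate 1 against rank 7781 and signal 35.4 in replicate 2. Another such pair, H2ac12 and H2bc12, carried a peak of signal 34.3 (chr13:22035617-22035976), 154 and 24 bp upstream, with ranks 20781 and 18693. The DNA between the TSSs of these pairs is shown because all 3 summits fell in it and because it holds the octamer. They were picked for the octamer, and summit and octamer do not always go together. The gaps of H2ac13, H2ac22 and H2ac7 with their H2B partners held a summit and no octamer. The gap of H2ac20 and H2bc21 held a summit, and an octamer lay just beyond its edge, 38 bp from the nearest summit. The promoters of H2ac1 and H2bc1 share an octamer and had no peak within 10 kb. Each line runs 5′ to 3′ on the strand of the H2A gene and ends at its TSS, and capitals mark the octamer (ATTTGCAT or its reverse complement), CCAAT and TATAAA on either strand. The first 3 lines are chr13:23683960-23684198, chr13:23571221-23571399 and chr13:22035644-22035820, all given on the minus strand of GRCm38.p6, and the last is chr13:21810200-21810366 on the plus strand, the gap of a pair with no peak within 10 kb. H2ac23 and H2bc23 of that last pair lie almost wholly in repeated sequence (98.6% and 100% by the measure given below). A missing peak there may therefore be one that could not be measured.
H2ac6-H2bc4: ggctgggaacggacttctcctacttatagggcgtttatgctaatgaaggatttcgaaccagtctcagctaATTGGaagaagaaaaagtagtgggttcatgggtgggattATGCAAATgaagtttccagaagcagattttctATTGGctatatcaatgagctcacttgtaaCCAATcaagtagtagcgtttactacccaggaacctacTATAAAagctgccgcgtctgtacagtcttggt
H2ac8-H2bc8: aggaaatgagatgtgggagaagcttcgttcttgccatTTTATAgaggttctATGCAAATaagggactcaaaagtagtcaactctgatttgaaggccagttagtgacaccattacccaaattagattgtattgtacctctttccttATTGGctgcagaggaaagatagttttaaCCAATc
H2ac12-H2bc12: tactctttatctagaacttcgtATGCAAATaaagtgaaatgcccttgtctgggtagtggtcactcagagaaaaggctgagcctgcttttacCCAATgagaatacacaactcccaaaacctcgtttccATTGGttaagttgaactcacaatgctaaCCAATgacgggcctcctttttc
H2ac23-H2bc23: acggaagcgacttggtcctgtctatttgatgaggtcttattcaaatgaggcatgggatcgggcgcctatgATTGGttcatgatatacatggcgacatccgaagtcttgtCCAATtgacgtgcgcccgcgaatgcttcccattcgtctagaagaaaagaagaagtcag

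Among the 12 head-to-head histone pairs, 7 (58.3%) had a MEF2A summit between the 2 TSSs. Of all 681 protein-coding pairs that start at most 500 bp apart in opposite directions, 20.4% did. The histone gaps were longer, 164 to 281 bp with a median of 210, against a median of 89.0 bp for all pairs. Among the 118 pairs with gaps in that range, 33.1% had a summit between. The other pairs with a summit in the gap were H2ac13 and H2bc13 (signal 13.3), H2ac22 and H2bc22 (22.8), H2ac7 and H2bc7 (24.1) and, on chromosome 3, H2ac20 and H2bc21 (28.1). At the pair H2ac15 and H2bc15 the summit lay just beyond the gap, 5 bp into H2bc15 (38.3, ranks 13213 and 13042). The 4 pairs without a summit in or beside the gap were H2ac11 with H2bc11, H2ac23 with H2bc23, H2ac24 with H4bc24, and H2ac1 with H2bc1.

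**Figure D1:**
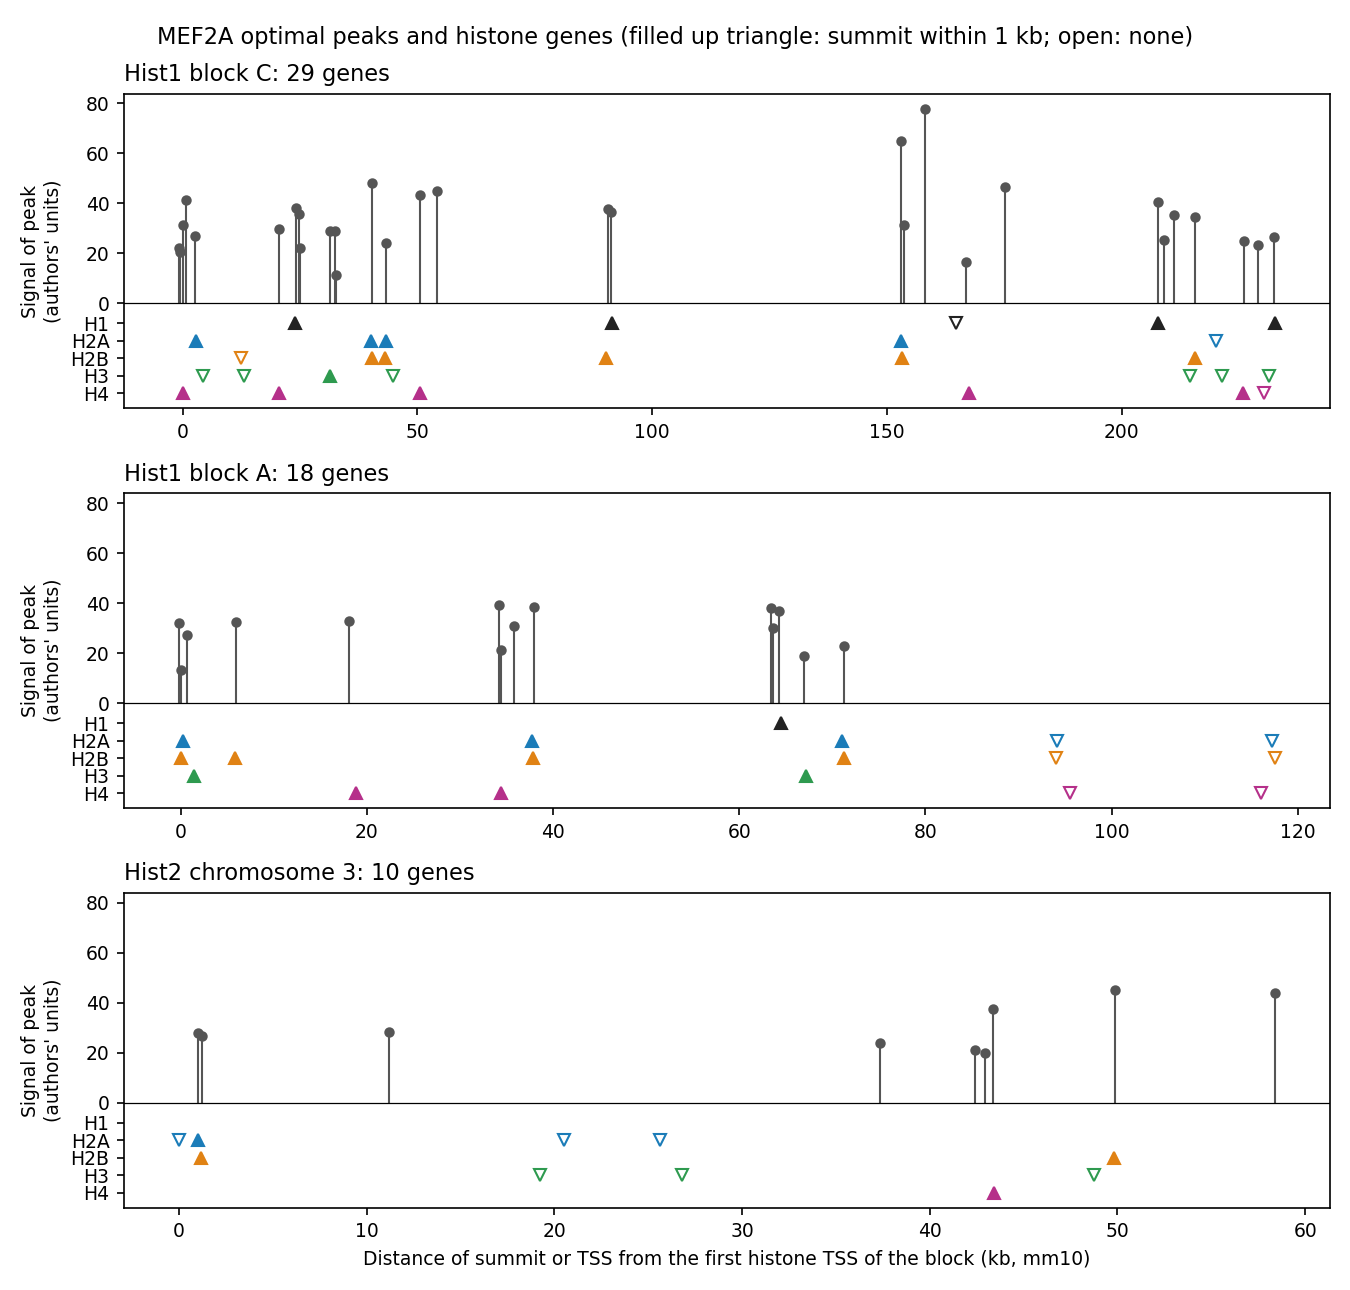
Optimal MEF2A peaks along the 3 largest blocks of histone genes, with grey stems for the signal of each peak (authors' units) against the distance of its summit from the first histone TSS of the block in kb. Triangles below mark the outermost TSS of each gene by family, filled where a summit lay within 1 kb of any of its TSSs. Peaks sit at most genes of blocks C and A, the highest stems are 64.8 and 77.9 at H2ac6 and inside H2bc4, and the 6 genes at the right end of block A have none.

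By family, the share with a summit within 1 kb was 5 of 6 for H1, 10 of 18 for H2A, 12 of 18 for H2B, 3 of 12 for H3 and 10 of 13 for H4, to be read against the 30.9% of all genes. Within 10 kb these counts were 6, 14, 15, 11 and 11. The H3 share within 1 kb (25.0%) was near that of all genes (30.9%), and the H3 share within 10 kb was 91.7% beside 43.9%. The H3 genes had 3 distinct peaks within 1 kb and 38 within 10 kb. The wider window takes in peaks at the promoters of neighbouring histone genes, such as that between H2ac8 and H2bc8 for H3c4. The share within 10 kb is therefore not one of peaks at H3 promoters. Family members share clusters and peaks and are not independent.

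The linker histone genes encode the H1 protein that sits where DNA enters and leaves the nucleosome, and 4 of the 5 with a promoter peak had their nearest summit downstream of the TSS. H1f2 had its summit 46 bp downstream (signal 40.6, chr13:23738673-23739032). That peak matched rank 8372 in replicate 2 (signal 33.8) and no interval of the replicate 1 list, and it was not in the conservative set. H1f3 had a summit 70 bp downstream (38.3), with ranks 11739 and 19662. H1f5 had one 122 bp downstream (36.8) and H1f4 one 201 bp downstream (36.5). H1f1 had its only promoter summit 193 bp upstream (26.5). H1f6, the testis H1 gene, had none within 1 kb and its nearest summit 1975 bp away. The 150 bases before the H1f2 TSS (chr13:23738657-23738806, plus strand, GRCm38.p6) are shown as an example of an H1 promoter, with 1 CCAAT box and no octamer.
H1f2: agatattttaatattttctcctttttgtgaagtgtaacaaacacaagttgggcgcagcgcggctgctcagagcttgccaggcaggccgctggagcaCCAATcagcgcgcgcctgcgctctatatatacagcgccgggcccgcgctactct

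For the H2A genes, all 10 nearest summits lay upstream of the TSS, at a median distance of 148 bp. For the H2B genes 8 lay upstream and 4 downstream, at a median of 61.5 bp. A summit between a head-to-head pair is upstream of both genes by position. Most of these upstream summits belong to such pairs, so the side largely restates the pair counts above. Outside the pairs, the H2B gene H2bc18 had a summit 66 bp downstream of its TSS (45.0, chr3:96269586-96269945), with rank 30299 in replicate 1 and 9074 in replicate 2. H2bc6, which has a TSS far from its outermost one, had summits at 852 bp (45.1) and at -502 bp (37.8) from its TSSs. Single genes with clear promoter summits were H2bc14 (32.6, 55 bp downstream) and H2bc3 (34.6, 99 bp upstream).

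Of the H3 genes, only H3c6 had a summit within 200 bp of the TSS, 78 bp upstream (29.0), and it was weak in replicate 1 (rank 61245, signal 6.90) compared with replicate 2 (rank 15689, signal 23.2). H3c11 had a summit 256 bp downstream (18.7). For H3c10 the nearest summit was 769 bp upstream, and that peak lay nearer to H2ac13.

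The H4 genes showed the arrangement of the H1 genes, with 8 of 10 nearest summits downstream of the TSS at a median distance of 51.0 bp. H4c4 had a summit 56 bp downstream (43.2, chr13:23581444-23581803) that ranked alike in both replicates, 9600th and 9267th. H4c12 had summits 19 bp upstream (21.3) and 217 bp downstream (39.1). These 2 peaks overlap and match the same interval in each replicate (ranks 13102 and 16766), and the weaker was not in the conservative set. H4c8 had 4 summits within 1 kb, the strongest 718 bp downstream (41.2, ranks 7351 and 19378). Its peaks at -771 and -551 bp overlap and match the same interval in each replicate. The 150 bases before H4c4 (chr13:23581418-23581567, plus strand, GRCm38.p6) hold 1 CCAAT box and 1 TATAAA. The CCAAT box is not typical of the family: it was in 3 of 12 H4 promoter windows.
H4c4: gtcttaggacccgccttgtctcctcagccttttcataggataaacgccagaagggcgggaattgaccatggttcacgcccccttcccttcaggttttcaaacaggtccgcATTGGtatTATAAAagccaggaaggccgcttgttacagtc

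Over all 40 genes the summit lay downstream of the TSS in 42.5%, near the 42.0% of all protein-coding genes with a summit within 1 kb, so the opposite sides of the families cancel in the total. The nearest summit was within 200 bp for 34 of the 40 (85.0%), beside 75.3% of all such genes, and 16 of 40 (40.0%) had 2 or more summits within 1 kb, beside 26.2%. Since 61 of the 67 genes are shorter than 1 kb, a summit downstream can lie anywhere in the gene: 23 of the 46 summits were inside the span of a histone gene.

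**Figure D2:**
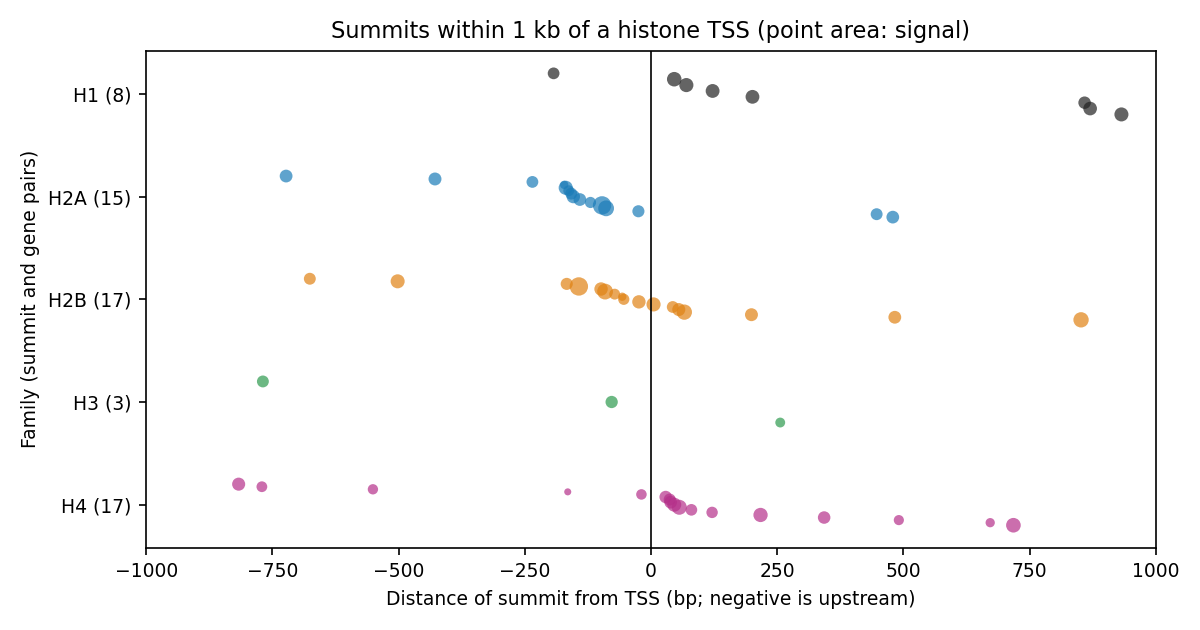
Distance in bp from TSS to summit (x axis, negative is upstream) for every pair of an optimal peak and a histone TSS within 1 kb, by family, with point area proportional to signal. H2A points gather between 89 and 172 bp upstream, and H4 points gather just downstream of the TSS.

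The letters of the promoters also differed by family. Promoter windows from 250 bases before to 50 after the TSS were matched for 62 of the 67 genes (63 windows). The octamer ATTTGCAT, searched on both strands, was in 14 of the 63 (22.2%) and in 1.66% of all 21263 protein-coding promoters of the same length. All 14 belonged to H2A (7 of 18) or H2B (7 of 17) genes, and an octamer between a head-to-head pair can count for both. These windows held 11 separate octamers. The middle of the octamer lay at these distances from the nearest histone MEF2A summit: 2 bp at H2ac12 and H2bc12, 13 at H2bc3, 26 at H2aw, 30 at H2ac6, 36 at H2ac8 and H2bc8, 38 at H2ac20, 76 at H2bc14 and 110 at H2bc18. The octamers of H2bc6, H2ac4 and the pair H2ac1 and H2bc1 were 916 bp or more from a summit. Only letters near a TSS were searched, where most summits of these genes lie, so short distances are in part set by the window, and no other string was compared. The octamer was in 11 of 38 windows of genes with a summit within 1 kb and in 3 of 25 windows of genes without one.

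CCAAT was in 85.7% of the histone windows against 38.2% of all promoters, in every H1, H2A, H2B and H3 window and in 3 of 12 H4 windows. TATAAA was in 55.6% against 12.6%. The GC box GGGCGG was in 38.1% against 46.2%, with 9 of 12 H4 windows and 2 of 17 H2B windows holding it. The ETS string CCGGAAGT was in no histone window and in 5.15% of all promoters, the CRE TGACGTCA was in 6.35% against 2.23%, and the AP-1 string TGANTCA in 4.76% against 6.99%. The MEF2 consensus itself, which overlaps TATAAA in some matches, was found in 3 of 63 windows (4.76%), those of H2ac1, H2bu2 and H3c11, against 2.74% of all promoters. Of these genes, H3c11 alone had a summit within 1 kb. The histone windows were less rich in G and C than others (median 45.3% against 56.3%), and the part of base composition in these shares was not tested. A match is a string of letters and not a shown binding site.

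The strongest histone-associated peak was not at a promoter. It lay inside H2bc4, 4940 bp downstream of its TSS (signal 77.9, rank 4071, chr13:23688959-23689318, mm10), and ranked 2876th in replicate 1 (signal 35.6) and 6175th in replicate 2 (signal 40.6). The mm9 list had a peak at the matching distance, 4925 bp from the H2bc4 TSS, in an intron by the GENCODE annotation (signal 104, chr13:23780969-23781079, mm9). Of the 14 mm9 peaks within 10 kb of a histone TSS this 1 (7.14%) had the MEF2 consensus within 50 bp of the summit, a share near the 7.13% of all mm9 peaks (3.18% of those within 1 kb of a protein-coding TSS). The middle of the match was 1 bp from the summit. The window of 50 bp to either side (chr13:23780943-23781043, plus strand, mm9) is shown with the match in capitals.
H2bc4 intron: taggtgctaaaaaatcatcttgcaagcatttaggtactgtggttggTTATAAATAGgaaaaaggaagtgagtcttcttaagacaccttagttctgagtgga

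The octamer was within 50 bp of the summit in 2 of those 14 mm9 peaks, at H2ac6 and H2aw, and CCAAT in 4 (28.6%, beside 9.47% of all mm9 peaks and 9.93% of the promoter ones). Among all 16839 mm9 peaks the octamer was in 3.12% and among the mm9 peaks within 1 kb of a protein-coding TSS in 1.22%. H2aw, an H2A gene of the small cluster on chromosome 11, had its octamer summit 141 bp upstream of the TSS on mm10 (31.1, chr11:58954364-58954723) and 141 bp upstream on mm9 (61.5, chr11:58767868-58768223). On mm10 this peak ranked 8816th in replicate 1 and 34968th in replicate 2. The 250 bases before its TSS (chr11:58954435-58954684, plus strand, GRCm38.p6) are shown with the same capitals as above.
H2aw: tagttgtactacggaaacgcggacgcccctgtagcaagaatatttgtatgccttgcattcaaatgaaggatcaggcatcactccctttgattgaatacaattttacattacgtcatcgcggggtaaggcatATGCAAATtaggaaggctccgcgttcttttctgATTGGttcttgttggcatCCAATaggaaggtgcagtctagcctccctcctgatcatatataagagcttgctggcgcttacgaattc

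The genes lie in 4 clusters. Hist1 on chromosome 13 holds 54 of them in blocks separated by more than 100 kb, called A to D here in order along the chromosome. Block C (29 genes) had a summit within 1 kb of 19 and within 10 kb of all 29. Block A (18 genes) had 12 and 12, and block B (5 genes) 3 and 5. Block D holds only H2ac1 and H2bc1, genes of the testis histones, and had no peak within 10 kb although both promoters share an octamer. Over the blocks the optimal set held 11.7 peaks per 100 kb in A, 31.4 in B, 13.2 in C and 0 in D, 15.4 in Hist2 and 38.6 in Hist3, beside 1.23 per 100 kb over the genome. The whole of Hist1, with the long gaps between its blocks, held 2.84. The values for B and Hist3 rest on 3 peaks each, in stretches of 9.56 kb and 7.78 kb drawn around the histone TSSs. The clusters are dense in genes, so peaks per length and peaks per gene are different measures.

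Hist2 on chromosome 3 holds 10 genes, of which 4 had a summit within 1 kb and 8 within 10 kb. H4c14 had a summit 46 bp downstream (37.6, ranks 18352 and 16478) and another at 491 bp (19.8). H2ac20 and H2bc21 shared 2 overlapping peaks (28.1 and 26.7), both matched to the same interval in each replicate list, at rank 6756 in replicate 1 and 63522 in replicate 2. H3c13 had its nearest summit 1112 bp downstream, H2ac21 1020 bp, H3c15 8030 bp and H2ac19 9277 bp. Neither H2ac18 nor H3c14 had one within 10 kb. On chromosome 11, H2aw had 2 summits within 1 kb and H2bu2, an H2B gene, had its nearest at 4623 bp. On chromosome 6, the H4 gene H4f16 had summits at 37 bp (27.8) and at -165 bp (9.54) that overlap and match 1 interval in each replicate, and a stronger one 3790 bp upstream (42.9). The variant gene H2aj, named at the end, had its strongest promoter summit at the same signal (42.9), 27 bp upstream of its TSS. Whether these are 1 peak, at the promoter of H2aj, was not tested.

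The genes without a peak lay mostly in sequence that occurs more than once in the genome. For each gene and its 1 kb flanks, the share of 36-base words found more than once in the mm9 genome was computed. The length of 36 was chosen because the read length is not known. The median was 15.1% for the 40 genes with a summit within 1 kb (highest 46.9%), 18.7% for the 17 with one only within 10 kb, and 94.0% for the 10 with none. H2bc23 and H4bc24 stood at 100%, H2ac24 at 98.9%, H2ac23 at 98.6%, H4c17 at 96.0% and H4c18 at 92.1%, and these 6 form the end of block A. H2ac18 had 66.3% and H3c14 39.3%. The remaining 2, H2ac1 with 9.34% and H2bc1 with 8.45%, were not repeated. Of the 9 histone genes above 50%, none had a summit within 1 kb, and the 2 with one within 10 kb were H2ac19 (66.1%) and H3c15 (52.3%). Among the 58 genes at or below 50%, 40 (69.0%) had a summit within 1 kb and 55 (94.8%) within 10 kb. All genes, not cut in this way, had 30.9% and 43.9%. This cut was made after seeing the data. As none of the 9 genes left out had a summit within 1 kb, it could only raise that share. How the authors treated reads with several matches is not given in the sources used here, and the part of repeated sequence in the missing peaks was not tested. For these copies, a gene without MEF2A and a gene that could not be measured cannot be told apart.

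**Figure D3:**
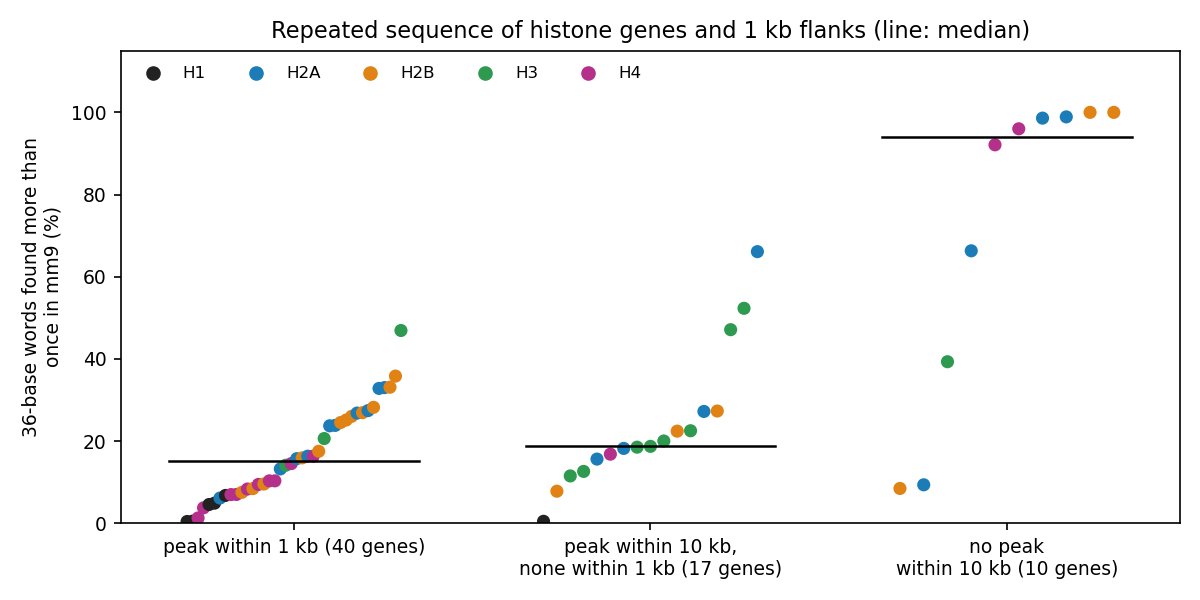
Percent of 36-base words of each histone gene and its 1 kb flanks that occur more than once in mm9 (y axis), by whether an optimal summit lay within 1 kb, only within 10 kb, or not within 10 kb of the gene, with colour for family and a line for the median. The medians are 15.1, 18.7 and 94.0, and 7 of the 10 genes without a peak lie above 50%.

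The 2 replicates placed the histone peaks at similar depths of their lists but not in the same order. Of the 46 peaks within 1 kb, 42 overlapped an interval of replicate 1 and all 46 one of replicate 2. Their best, median and worst ranks among 300000 intervals were 6201, 16867 and 132015 in replicate 1 and 4926, 18778 and 73460 in replicate 2. Within the first 31497 intervals, as many as the optimal set holds, were 34 of them in replicate 1 and 38 in replicate 2. These matches and ranks were not taken for all optimal peaks, so whether other peaks differ from the histone ones is not known. The 4 peaks with no interval in replicate 1 were those at H1f2 (40.6), H4c2 (25.0), H2bc7 and H2ac7 (24.1) and H4c3 (16.5), of which those at H4c2 and H4c3 were in the conservative set. Taking the 31497 strongest intervals of each replicate alone, 37 histone genes had a summit within 1 kb in replicate 1 (background 32.7%) and 42 in replicate 2 (background 31.6%). Within 10 kb these counts were 57 (background 45.2%) and 59 (background 45.1%).

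**Figure D4:**
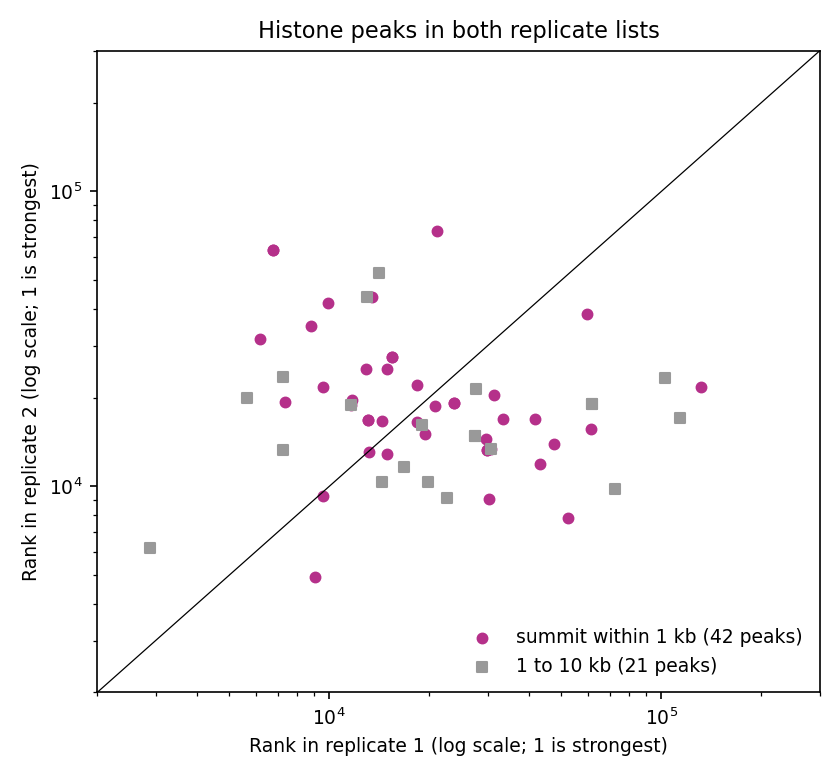
Rank of each histone peak in the relaxed list of replicate 1 (x axis) and replicate 2 (y axis), both on log scales with 1 the strongest, for peaks matched in both lists, with circles for the 42 summits within 1 kb and squares for those between 1 and 10 kb. The points spread widely to either side of the diagonal, and the square farthest to the left is the peak inside H2bc4 at ranks 2876 and 6175.

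The count of histone genes depended on which list was used. In the conservative IDR set 31 of 67 (46.3%) had a summit within 1 kb, beside 28.3% of all genes. This set is not part of the optimal one: it held 28217 peaks, 23045 of them the same as optimal peaks, and 32 of the 46 histone peaks were among these. In the mm9 list of 16839 peaks 7 of 67 (10.4%) had a summit within 1 kb, beside 16.5% of all genes, so the histone genes there were below and not above the background. Within 10 kb it was 22 of 67 (32.8%) beside 28.3%. Cutting the optimal set to its 16839 strongest peaks gave 19 of 67 (28.4%) beside 17.0%, and 41 of 67 (61.2%) beside 28.3% within 10 kb. The mm9 list names no control file and has its own signal scale, and what sets it apart from the mm10 lists was not tested.

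The 7 genes with an mm9 summit within 1 kb all had one on mm10. They were H2ac6 and H2bc4 (1 peak of signal 98.5, rank 4020, chr13:23775759-23776114, mm9), H2aw, H1f4 (50.6, 85 bp downstream, in the coding exon), H1f2 (48.5, 46 bp downstream, in the coding exon), and H2ac20 with H2bc21 (44.1, 71 and 170 bp upstream). The distance of 46 bp at H1f2 was the same on both builds. No H3 or H4 gene had an mm9 summit within 1 kb.

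**Figure D5:**
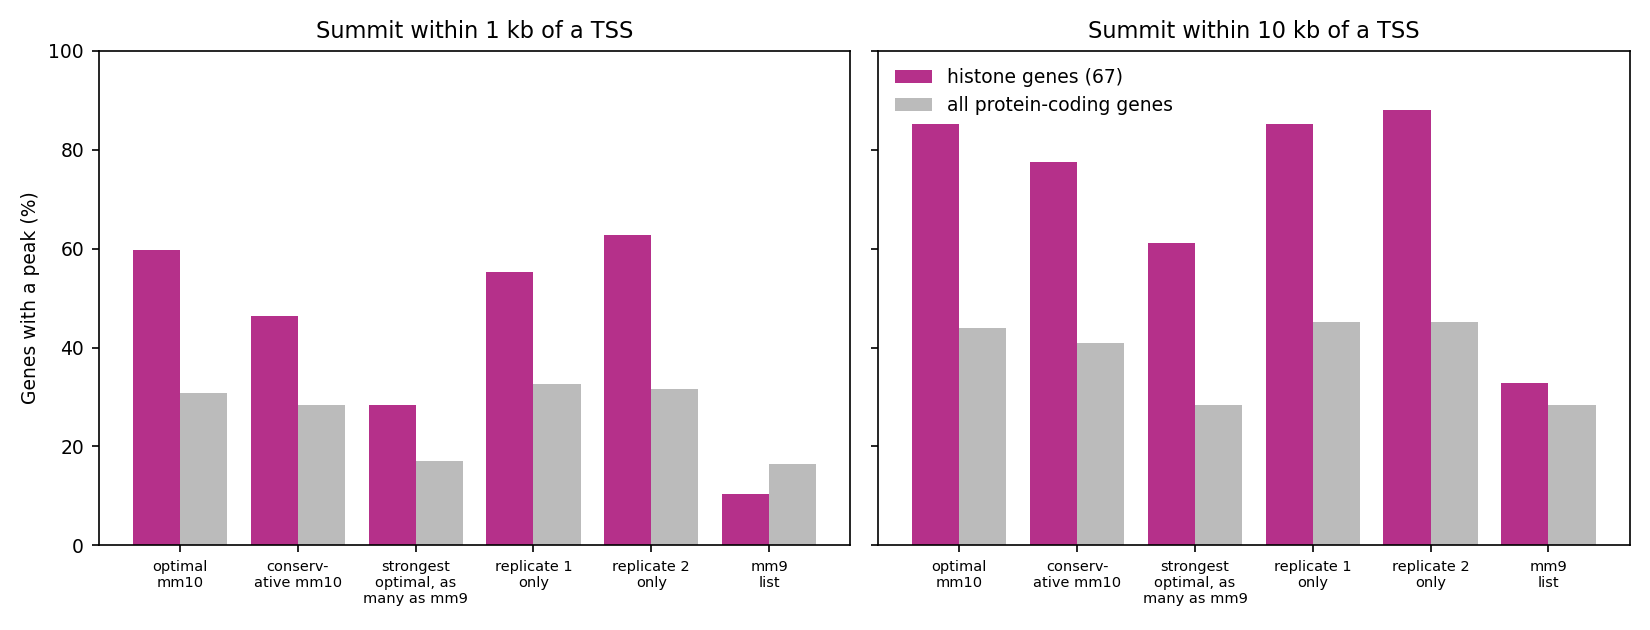
Percent of the 67 histone genes (coloured bars) and of all protein-coding genes (grey bars) with a summit within 1 kb (left) or 10 kb (right) of a TSS, for 6 lists of peaks. The histone bar is the higher in the 5 mm10 lists in both panels, and in the mm9 list it is lower within 1 kb (10.4% against 16.5%) and slightly higher within 10 kb (32.8% against 28.3%).

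Genes that make and handle histone mRNA and protein also had promoter peaks. Of 20 genes for transcription, processing or decay of histone mRNA, 14 (70.0%) had a summit within 1 kb and 16 (80.0%) within 10 kb, to be read against 30.9% and 43.9% of all genes. The strongest within 1 kb were at Lsm11 (72.5), a subunit of the U7 particle that cuts histone pre-mRNA, Nfya (64.0), a subunit of NF-Y, Slbp (49.4), the stem-loop binding protein, Pou2f1 (47.7), which encodes Oct-1, and Zfp473 (46.8), a further processing factor. Npat, the coactivator of histone genes in S phase, had no peak within 10 kb, and neither did Hinfp, which encodes an activator of H4 genes, Cpsf2 or Cstf2. Of 11 histone chaperone genes 8 (72.7%) had a summit within 1 kb, the strongest at Asf1a and Ssrp1 (both 45.4), Supt16 (41.2), Asf1b (37.3) and Hira (31.3), while Chaf1b and Atrx had none within 10 kb.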

How the data were processed

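MEF2A ChIP-seq peaks of 2 replicates of CH12.LX were used. Per the texts that accompany the deposited lists, the authors called relaxed lists on each replicate and on both pooled, with a control file, made the IDR sets from these, and made the mm9 list from the alignments of both replicates. Which caller and aligner they ran is not given in the sources used here. Control reads were not analysed here. The authors' deposited signal values were compared by rank within 1 list only. Read depth is unknown, so no interval covers sequencing error.

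On mm10, genes came from RefSeq GRCm38.p6. TSSs were all those of the RefSeq promoter table (strand for 17492 genes) plus the outermost gene end, with strand from GENCODE vM1 for 4041 other genes, together 21533 of 21887 genes. On mm9 every protein-coding GENCODE vM1 transcript was used (22367 genes, 67 members). For 5 members (H3c7, H2bc4, H3c1, H2bc21 and H4c14) strand came from GENCODE and no promoter window was matched. Promoter sequences are RefSeq's, build GRCm38.p6, and the gaps of pairs were read from them. Sequence at mm9 summits and the repeated words were read from the mm9 genome; coordinates are 1-based and none were converted. Peaks matched a replicate interval at 1 bp of overlap or more. The scripts were tested on simulated peaks and sequences. Python 3.11.15, numpy 2.4.6, pandas 2.3.3 and matplotlib 3.10.9 were used.

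The members and gene lists were chosen with earlier results of these data known. Every member could be named. Named in detail were those at the 10 strongest peaks within 1 kb, those without a peak within 10 kb, those with an mm9 peak within 1 kb, those outside Hist1, and of the other lists up to 5 genes by signal and those without a peak. Other members are named as examples. The alternatives tried were stricter or shorter lists, each replicate alone, other windows and assignments, and other TSS or member sets.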

Additional observations from a re-analysis of the deposited data

How the results depend on the processing

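The share of histone genes with a summit stayed above that of all genes in every mm10 setting tried and fell below it only in the mm9 list within 1 kb, where 7 genes had one with all transcript TSSs (16.5% of all genes) and also 7 with outermost TSSs. Within 10 kb the mm9 list gave 22 genes with either set of TSSs. The stronger 50% of the optimal set gave 16 genes within 1 kb (23.9%, 95% Wilson interval 15.3 to 35.3, beside 15.6% of all genes) and 35 within 10 kb (52.2% beside 26.4%), and the 16839 strongest peaks gave 19 within 1 kb (28.4% beside 17.0%). That interval treats the genes as independent, which they are not, because they share clusters and peaks. Distinct peaks within 1 kb numbered 15, 17 and 6 in the stronger 50%, the 16839 strongest and the mm9 list, and within 10 kb 25, 28 and 14. The median signal percentile of the peaks within 1 kb was 41.0 (all promoter peaks 42.2). It was 15.9 and 18.9 in those 2 shortened lists (all promoter peaks 38.2 and 38.4). With 1 replicate alone it ran from 40.3 (replicate 2, promoter peaks 45.4) to 55.6 (replicate 1, promoter peaks 47.5), so it was below them in 1 replicate and above them in the other. The cause of these shifts was not tested. Leaving out a replicate gave 37 to 42 genes within 1 kb and 57 to 59 within 10 kb. A further 3 settings were added after seeing the data: outermost TSSs on mm10 gave 40 and 57 genes, members by RefSeq name only 38 and 53 of 62, and members with at most 50% repeated words 40 and 55 of 58. The last of these leaves out only genes without a summit within 1 kb, so it could not lower the share there. No paired analysis was possible because the 2 samples form 1 group. Read depth and the treatment of reads with several matches are unknown, which limits what a missing peak means.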

Other observations

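The other protein-coding genes within the span of Hist1, nearly all in the long gaps between its blocks, mostly lacked MEF2A peaks. Between the first and the last Hist1 TSS are 50 other protein-coding genes, of which 1 had a summit within 1 kb and 5 within 10 kb. Of these, 36 are Vmn1r genes, which encode vomeronasal pheromone receptors, and they had 0 and 1, while the 14 others had 1 and 4. These counts are to be read against 30.9% and 43.9% of all genes. Repeated words were not computed for these genes, so a missing peak may be one that could not be measured. Inside a block lie only Hfe, in block C, with a summit within 10 kb and none within 1 kb, and Trim17, in Hist3 on chromosome 11, with a summit within 1 kb.

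Histone genes outside the replication-dependent set, which encode replacement variants, also had summits. Of 11 such genes, 8 (72.7%) had a summit within 1 kb and 9 (81.8%) within 10 kb, beside 30.9% and 43.9% of all genes. The strongest within 1 kb were at H3f3b (57.5), which encodes the replacement H3, H2az1 (43.0), H2aj (42.9), H3f3a (37.1), also for that protein, and H2ax (36.4), the variant phosphorylated at DNA breaks. Macroh2a2 and H1f10 had none within 10 kb.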
